A study of Homo sapiens with 12 samples.

Results

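The cytosolic ribosomal protein genes encode the proteins of the large and small subunits of the ribosome. Of the 19799 protein-coding genes listed in each table, 84 carried a ribosomal protein name of the forms RPL, RPS, RPLP or RPSA, and 79 of these were members here. Members were selected on their mean FPKM (fragments scaled to gene length and library size) over the 6 libraries of a table, which had to reach at least 1 in both tables, so their levels are given as a description only. The rule itself did not use the comparison of knockdown with control, but the gene family was picked with earlier results of that comparison known. There were 48 genes of the large subunit and 31 of the small subunit, and 8695 protein-coding genes in all met the same level rule.

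PolyA RNA of 2 cancer cell lines was sequenced 72 h upon siRNA transfection. HepG2 is a line derived from a liver cancer, and BE(2)-C is a line derived from a neuroblastoma. Each line gave 3 libraries of cells that received control siRNA (siC) and 3 of cells that received a pool of siRNAs directed against IGF2BP1 (siI1), at 15 nM in HepG2 and 25 nM in BE(2)-C. IGF2BP1 is an mRNA-binding protein of fetal tissues and tumors, and the question was how its knockdown changes RNA abundance. The libraries held between 12852988 and 15721210 reads on genes, as recovered from the FPKM values. The libraries of a group are biological replicates per the methods of the study, and each table was normalized separately. The library HepG2 siI1 1 stood apart from the other siI1 libraries of that line, with a Pearson correlation of 0.988 to them on the log2 scale, while they correlated at 0.997 with each other.

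Ribosomal proteins and ribosomal RNA are assembled in the nucleolus and exported as subunits. The mRNAs of most ribosomal proteins are short, abundant and stable, and start with a pyrimidine stretch at the 5′ end, the TOP motif, through which mTOR and the RNA-binding protein LARP1 adjust their translation together. A few members have relatives ending in L or L1 (paralogs), which arose by duplication and are usually less abundant.

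IGF2BP1 (ENSG00000159217, hg38 chr17:48997385-49056145) was measured first as the check of the knockdown. Its FPKM values in HepG2 were 48.5, 46.6 and 50.8 in siC and 12.6, 10.7 and 10.7 in siI1. The values for BE(2)-C were 21.3, 20.6 and 21.6 in siC and 4.85, 4.75 and 4.87 in siI1. All siI1 libraries were below all siC libraries of their line, with a log2 fold change of -2.10 ± 0.079 (SE, limma adjusted p = 7.83e-06) in HepG2 and -2.11 ± 0.048 (adjusted p = 1.48e-05) in BE(2)-C. The labelled cell lines matched their markers. The 6 hepatic markers, with ALB as the most abundant, summed to 6939 to 13353 FPKM in the HepG2 libraries and to at most 0.228 FPKM in BE(2)-C. The 6 neuroblastoma markers, with MYCN as the most abundant, summed to 2594 to 2783 FPKM in BE(2)-C and to at most 0.269 FPKM in HepG2.

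Upon IGF2BP1 knockdown most ribosomal protein genes were upregulated in HepG2 and some of them in BE(2)-C. Of the 79 members, 66 passed the test as higher in HepG2 (limma, adjusted p below 0.05), against 21.9% of all tested genes and 24.5% of the protein-coding genes of the same level rule. Another 2 members were lower in HepG2, RPL22L1 and RPL7L1, against 23.0% of all tested genes and 35.1% under the level rule, and 11 were not called. With all libraries scaled to equal sums 4 members were lower in HepG2. There were 34 members that were higher in BE(2)-C, against 13.3% of all tested genes and 15.7% under the level rule. That count was 55, at a median of 0.23, with libraries scaled to equal sums of the other protein-coding genes, and 22 with errors that do not follow the mean level (no trend). All tested genes moved with that scaling too, to a median of 0.093 from 0.016. Of these 18656 genes, 3277 were then higher, and 2214 with no trend, in place of 2489. With equal sums of the other genes, RPL13A, RPL22, RPL39, RPLP0, RPS19, RPS2, RPS3 and RPSA were among the members called in BE(2)-C (limma adjusted p from 0.00245 to 0.0405). A single member, RPS27L, was lower in BE(2)-C, against 14.8% and 24.2%, and 44 were not called. The number of lower members in BE(2)-C was 2 without siI1 1 or with equal sums. By limma it was 0 with equal sums of the other genes (1 at an unadjusted p below 0.05), 0 without siC 2 or siC 3 (2 at an unadjusted p below 0.05) and 0 without siI1 2 or siI1 3 (1 at an unadjusted p below 0.05). The median log2 fold change of the members was 0.53 for HepG2 and 0.15 for BE(2)-C, beside 0.0069 and 0.016 over all tested genes and -0.085 and -0.035 under the level rule. All members passed the filter on low values in both lines.

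In HepG2, 67 members were higher in each siI1 library than in each siC library, against 28.0% of all tested genes, and in BE(2)-C 45 were, against 22.6%. The member median over the siC mean was 0.31 for HepG2 siI1 1 and 0.61 and 0.65 for the other siI1 libraries of that line. When HepG2 siI1 1 was left out, 72 members were higher and the member median was 0.64, while 4574 of all 19436 tested genes were higher in place of 4250. Scaling all libraries of HepG2 to equal sums moved the median of all tested genes from 0.0069 to -0.15 and that of the members to 0.36, so that the members were 0.51 above all genes in place of 0.52. The values of RPL6, RPL7, RPL10, RPL11, RPL23, RPL39, RPS6 and RPS27A in HepG2 were then between 0.16 (RPL7) and 0.30 (RPS6). The higher genes then made up 35.5% of all calls in HepG2 in place of 48.8%, and 94.2% of the member calls in place of 97.1%. Equal sums of the other protein-coding genes moved the median of all tested genes in HepG2 to -0.094. For BE(2)-C, equal sums of the other protein-coding genes raised the higher genes from 47.4% to 61.0% of all calls and from 97.1% to 100% of the member calls. The member median was above 0 under each of these scalings and under median centring in both lines.

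**Figure D1:**
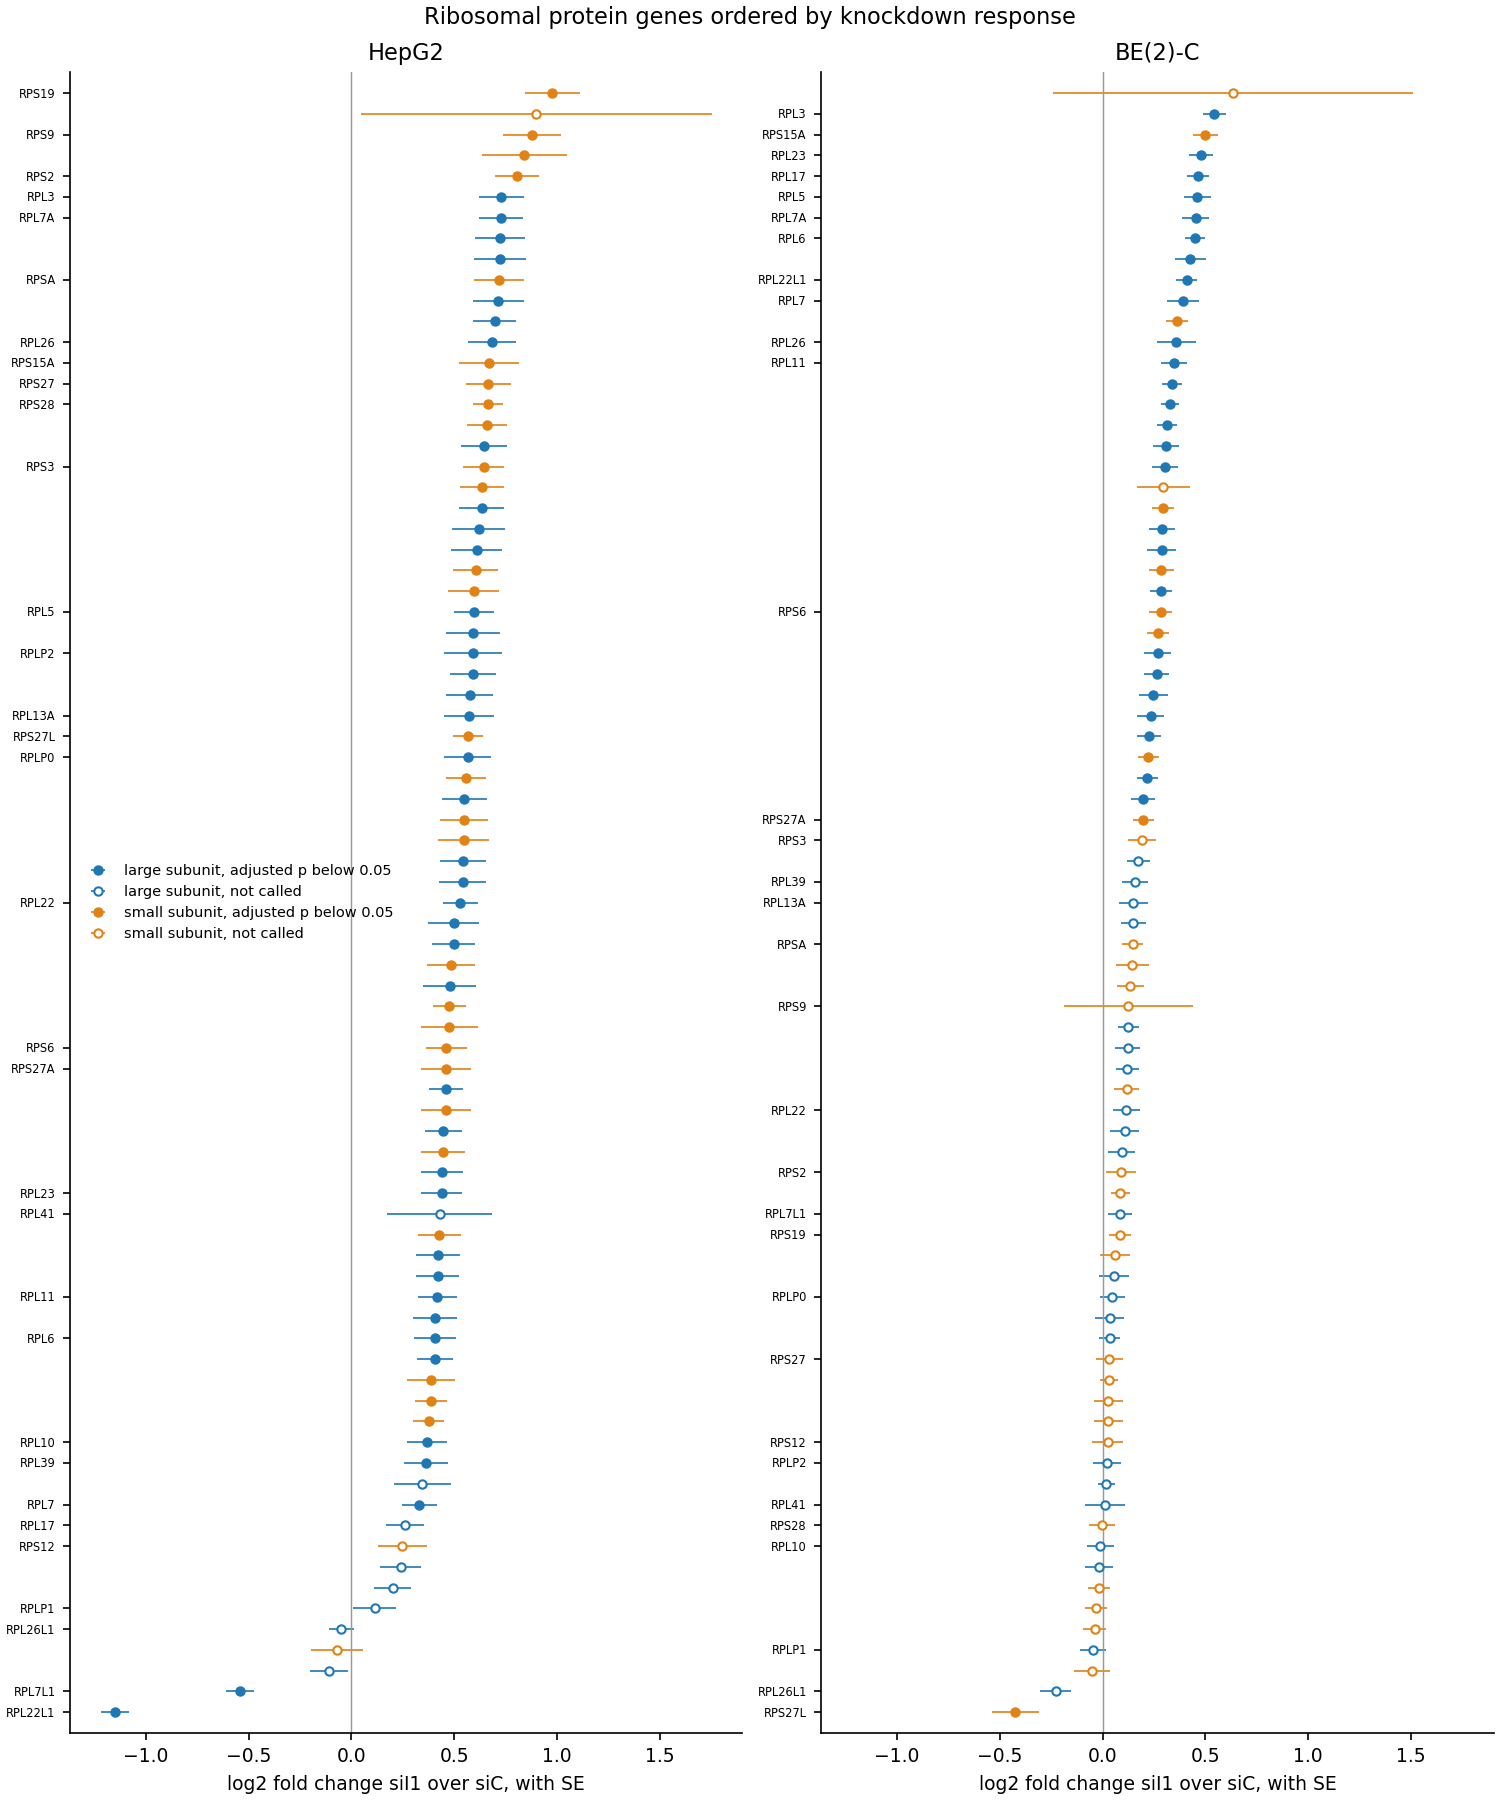
Log2 fold changes of siI1 over siC with their standard errors for the 79 members in HepG2 (left) and BE(2)-C (right), each ordered by value, with large subunit genes in blue, small subunit genes in orange, open points for genes that were not called and names for some of the members. The lower and upper quartile are 0.41 and 0.63 in HepG2, with RPL22L1 and RPL7L1 on the negative side, and 0.040 and 0.29 in BE(2)-C.

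As a share of all protein-coding FPKM, the members made up 7.26%, 7.80% and 7.21% in the HepG2 siC libraries and 8.71%, 9.91% and 10.0% in siI1. The BE(2)-C shares were 15.4%, 15.7% and 15.1% in siC and 18.0%, 17.3% and 17.5% in siI1. The siI1 libraries all lay above the siC libraries of their line. The mean share was 7.42% ± 0.329 and 9.55% ± 0.728 for siC and siI1 of HepG2 and 15.4% ± 0.324 and 17.6% ± 0.353 for BE(2)-C (SD, n = 3). No test was run on these sums. FPKM is relative to the whole library, so that more RNA of the members per cell and less RNA of other genes cannot be told apart, nor can more cells of a kind and more RNA per cell.

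**Figure D2:**
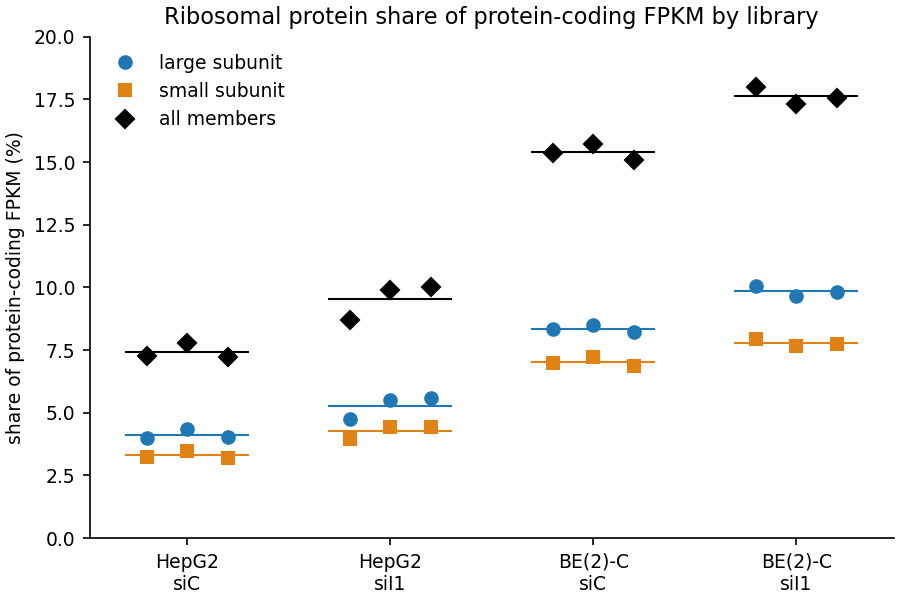
Share of protein-coding FPKM in percent for the large subunit members (circles), the small subunit members (squares) and all members (diamonds) in each library, with lines at the mean of 3 libraries. The siI1 libraries lie above the siC libraries in both lines, and HepG2 siI1 1, at 8.71%, lies below the other siI1 libraries of that line.

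Most members of both subunits were higher in HepG2, namely 38 of 48 large subunit members and 28 of 31 small subunit members, with medians of 0.49 and 0.56 (0.32 and 0.39 with equal sums). The large subunit had 26 higher members in BE(2)-C (17 without siI1 1 and 16 with no trend), and the small subunit had 8. With equal sums of the other protein-coding genes these counts were 38 and 17. The higher genes among all 18656 tested in BE(2)-C then rose from 2489 to 3277, and the median of all tested genes from 0.016 to 0.093. The subunit medians in BE(2)-C were 0.22 and 0.12 (0.30 and 0.20 with equal sums of the other genes). That of the small subunit was 0.068 without siC 3 and 0.076 without siI1 1, and the difference between the subunits was not tested. In both lines 31 members (39.2%) were higher, against 4.34% of all genes tested in both tables and 5.46% under the level rule. Another 34 (43.0%) were higher in HepG2 and not called in BE(2)-C, against 14.1% of either. A further 2 (2.53%), RPL4 and RPL17, were higher in BE(2)-C and not called in HepG2, against 5.99% and 6.45%. The members higher in both lines and those higher in HepG2 alone numbered 50 and 16 with equal sums of the other genes (against 4.80% and 10.6% of all genes) and 20 and 43 with no trend (against 3.52% and 14.3%). With median centring RPL4 and RPL17 were both called in HepG2 (adjusted p = 0.0327 and 0.0178), and RPL4 was also called there without siI1 1 (0.00392). The BE(2)-C call of RPL4 was lost without siC 2, siI1 1, siI1 2 or siI1 3 (adjusted p from 0.0602 to 0.0712), with no filter on low values (0.0577) or with no trend (0.0572). RPL22L1 and RPS27L were called in opposite directions, RPL7L1 was lower in HepG2 and not called in BE(2)-C, and 9 members had no call in either line. A call in a single line does not show a difference between the lines, which was tested by itself.

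RPS19, a small subunit protein whose gene is mutated in Diamond-Blackfan anemia, had the highest log2 fold change of the members in HepG2. Its FPKM values there were 169, 196 and 176 in siC and 290, 382 and 400 in siI1. The groups did not overlap, and the log2 fold change was 0.98 ± 0.13 (SE, limma adjusted p = 0.00114), a fold of 1.97. Its BE(2)-C values were 431, 401 and 405 in siC and 456, 430 and 426 in siI1, which overlapped, at a log2 fold change of 0.083 ± 0.054 (adjusted p = 0.3).

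Shown next are the bases around the start site of members that were higher in HepG2 and of the paralogs RPS27L, RPL22L1 and RPL7L1, since the TOP motif lies there. They were chosen with the values known. The windows run from 10 bases before the start to 20 bases from the start on, 5′ to 3′ on the strand of the gene. Capitals mark the pyrimidine stretch that begins with C at the start and has at least 5 bases.
RPS19: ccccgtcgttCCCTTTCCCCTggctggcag
RPSA: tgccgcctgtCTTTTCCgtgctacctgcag
RPLP0: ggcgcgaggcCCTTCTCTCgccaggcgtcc
RPS6: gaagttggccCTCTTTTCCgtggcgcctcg
RPS27: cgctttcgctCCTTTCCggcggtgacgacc
RPL3: gccgaccggcctctaccggcgggatttgat
RPS27L: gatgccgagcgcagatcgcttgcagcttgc
RPL22: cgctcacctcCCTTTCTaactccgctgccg
RPL22L1: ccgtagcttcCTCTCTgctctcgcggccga
RPL7L1: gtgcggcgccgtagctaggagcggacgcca
They were taken from RefSeq (GRCh38.p14). RPL3, RPS27L and RPL7L1 have no such stretch, and RPL3 has a run of 4 pyrimidines at the start. The window of RPS19 spans chr19:41860245-41860274 on the plus strand and that of RPSA chr3:39406710-39406739 on the plus strand. The windows of RPLP0 and RPS6 span chr12:120201092-120201121 on the minus strand and chr9:19380217-19380246 on the minus strand. Those of RPS27 and RPS27L span chr1:153990752-153990781 on the plus strand and chr15:63157458-63157487 on the minus strand, and that of RPL3 chr22:39319604-39319633 on the minus strand. For RPL22, RPL22L1 and RPL7L1 they span chr1:6199576-6199605 on the minus strand, chr3:170870176-170870205 on the minus strand and chr6:42879606-42879635 on the plus strand.

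The stretch searched was a C at the start followed by at least 4 more bases that were C or T, on the strand of the gene only. The RefSeq table held 64 of the 79 members, and the first start listed for a gene was used. Of these, 41 (64.1%) had such a stretch, beside 421 of 6995 (6.02%) protein-coding genes of the same level rule and 1104 of 27305 (4.04%) of all genes in the table. When the stretch could begin with a C anywhere from 10 bases before to 10 bases after the start, 54 members (84.4%) had one, beside 2340 (33.5%) and 9091 (33.3%). Both definitions were chosen with the values known. Of the 4 paralogs among the members, RPL22L1 had it and RPL7L1, RPL26L1 and RPS27L did not. The 41 members with the stretch had median log2 fold changes of 0.55 (HepG2) and 0.15 (BE(2)-C), and the 23 members without it 0.44 and 0.20. The members not matched included RPL5, RPL7, RPL8, RPL23, RPL23A, RPL30, RPL37, RPS2, RPS15A and RPS20. Lengths were taken from the GENCODE annotation (release 44), from the transcript marked there as canonical for each gene. Whether these forms were the ones expressed here was not tested. The member transcripts had a median 5′ UTR of 42 bases and coding sequence of 453 bases, beside 129 and 1362 bases under the level rule. The median 3′ UTR was 158 bases, beside 1325, and ranged from 22 bases in RPS12 to 7242 bases in RPL37.

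RPS2, a small subunit protein (hg38 chr16:1962058-1964841), rose in HepG2 from 443, 502 and 453 FPKM in siC to 719, 852 and 881 FPKM in siI1. The groups did not overlap, at a log2 fold change of 0.81 ± 0.11 (SE, limma adjusted p = 0.00109). It was the most abundant member in BE(2)-C, with 2652, 2654 and 2435 FPKM in siC and 2794, 2686 and 2751 FPKM in siI1, which did not overlap either. Its log2 fold change there was 0.089 ± 0.072 (adjusted p = 0.409). RPS28, another small subunit gene, had 44.1, 49.0 and 41.9 FPKM in siC and 67.8, 71.3 and 75.0 FPKM in siI1 of HepG2 (log2 fold change 0.67 ± 0.073, adjusted p = 0.000447). Its BE(2)-C values were 321, 311 and 291 in siC and 328, 294 and 299 in siI1, which overlapped (log2 fold change -0.0043, adjusted p = 0.966). The pseudogenes named after RPS28 held 71.0% of the reads of the gene and its pseudogenes in HepG2 and 31.8% in BE(2)-C, so that its level is uncertain.

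RPL3, a large subunit protein that reaches close to the site of peptide bond formation, was upregulated in both lines. The HepG2 values went from 252, 272 and 248 FPKM to 364, 459 and 464 FPKM (log2 fold change 0.73 ± 0.11, limma adjusted p = 0.00184). Those of BE(2)-C went from 526, 495 and 500 FPKM to 777, 716 and 724 FPKM (0.54 ± 0.057, adjusted p = 0.000914). The groups did not overlap in either line. RPL7A was also higher in both, at 0.73 in HepG2 (adjusted p = 0.00159) and 0.45 in BE(2)-C (adjusted p = 0.00302). RPL6, RPL23 and RPL17, all of the large subunit, had log2 fold changes of 0.45, 0.48 and 0.46 in BE(2)-C (adjusted p = 0.000976, 0.00154 and 0.00133). Their HepG2 values were 0.41, 0.44 and 0.26 (adjusted p = 0.0178, 0.0117 and 0.0557), so that RPL17 was not called, while it was with a filter at FPKM 1, with pseudogene reads added or with median centring (adjusted p from 0.0178 to 0.042). The HepG2 call of RPL6 was lost without siC 1, siC 3, siI1 2 or siI1 3 (adjusted p from 0.0592 to 0.0671). The small subunit gene RPS15A was higher in HepG2, at 0.67 (adjusted p = 0.00887), and in BE(2)-C, at 0.50 (adjusted p = 0.00159).

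**Figure D3:**
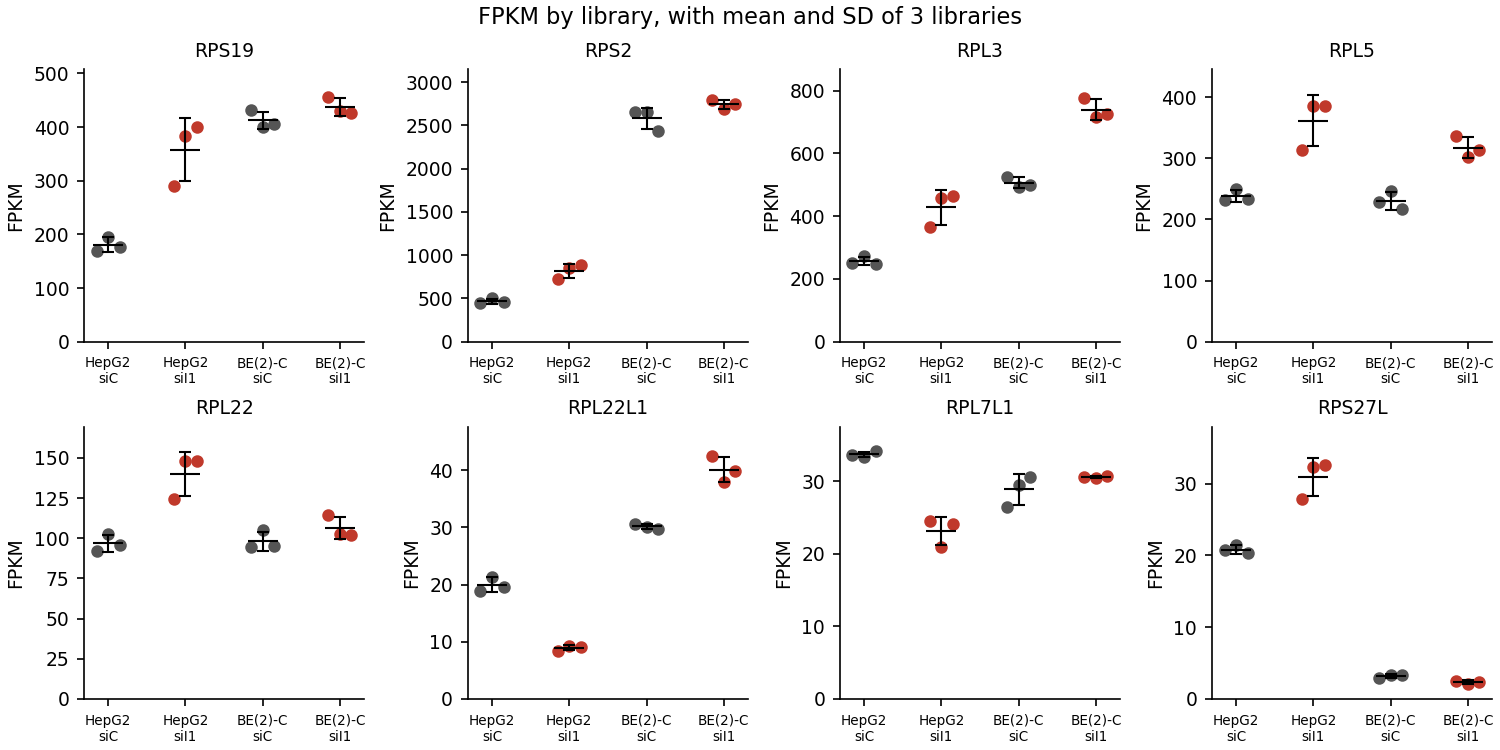
FPKM of 8 members in each library (points), with the mean and SD of 3 libraries, for siC (grey) and siI1 (red) in HepG2 and BE(2)-C. RPS19, RPS2 and RPL22 rise in HepG2, RPL3 and RPL5 rise in both lines, RPL22L1 falls in HepG2 and rises in BE(2)-C, RPL7L1 falls in HepG2, and RPS27L rises in HepG2 and falls in BE(2)-C.

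Members with known roles outside or at special sites of the ribosome were taken whether called or not. RPL5 and RPL11, which bind MDM2 as free proteins and so link ribosome assembly to p53, were higher in both lines. RPL5 had 232, 250 and 233 FPKM in siC and 314, 385 and 386 FPKM in siI1 of HepG2 (log2 fold change 0.60 ± 0.10, limma adjusted p = 0.00279). Its BE(2)-C values were 229, 246 and 217 FPKM in siC and 336, 302 and 314 FPKM in siI1 (0.46 ± 0.065, adjusted p = 0.00282). RPL11 had log2 fold changes of 0.42 in HepG2 (adjusted p = 0.0106, and 0.0514 without siC 3) and 0.35 in BE(2)-C (adjusted p = 0.00731). RPS6, the target of S6 kinase, was at 0.46 in HepG2 (adjusted p = 0.00895) and 0.28 in BE(2)-C (adjusted p = 0.0106). RPS27A, which is made as a fusion with ubiquitin, was at 0.46 (adjusted p = 0.0206) and 0.20 (adjusted p = 0.0274). The HepG2 call of RPS27A was lost without siC 1, siC 3, siI1 2 or siI1 3 (adjusted p from 0.0676 to 0.0763), and the BE(2)-C call without siC 3, siI1 1 or siI1 2 (from 0.0779 to 0.0807), with no filter on low values (0.051) or with no trend (0.0937).

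The stalk proteins RPLP0, RPLP1 and RPLP2 recruit the elongation factors. RPLP0 was higher in HepG2 (0.57, limma adjusted p = 0.00697), as was RPLP2 (0.59, adjusted p = 0.0133), and RPLP1 was not called (0.11, adjusted p = 0.422, and 0.0278 without siI1 1). The call of RPLP2 was lost without HepG2 siC 1 or siI1 2 (adjusted p from 0.0516 to 0.0529). The BE(2)-C values were 0.047, -0.046 and 0.021 for RPLP0, RPLP1 and RPLP2, none of them called (adjusted p = 0.616, 0.635 and 0.852). RPSA, also known as the laminin receptor, and RPS3, which has a role in DNA repair, were higher in HepG2 at 0.72 (adjusted p = 0.00319) and 0.64 (adjusted p = 0.00226). They were at 0.15 and 0.19 in BE(2)-C and not called (adjusted p = 0.0786 and 0.0786), while RPSA was called without siC 1 (adjusted p = 0.0436). Both were called higher in BE(2)-C with equal sums, median centring or a filter at FPKM 1 (adjusted p from 0.0132 to 0.0453).

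The most abundant members in HepG2 by FPKM were RPS12, RPL41 and RPS27, with means of 1293, 1110 and 802 FPKM over the 6 libraries. This order depends on the listed lengths, which were short for them, at 767, 1088 and 946 bases. Their reads in HepG2 were 84398, 102439 and 64294, fewer than the 139244 of RPL3 and the 137433 of RPL13A. RPS2 and RPL13A were among the most abundant in BE(2)-C, with 2662 and 2166 FPKM. RPS12 and RPL41 were not called in either line, and without HepG2 siI1 1 they were called higher there (limma adjusted p = 0.0146 and 0.00609). RPS27 was higher in HepG2 (log2 fold change 0.67, limma adjusted p = 0.00275), and so was RPL13A (0.57, adjusted p = 0.00803). Their BE(2)-C values were 0.032 and 0.15, without a call, while RPL13A was called with equal sums (adjusted p = 0.0237). Just inside the level threshold were RPS27L, at a mean of 2.79 FPKM in BE(2)-C, and RPS9, at 4.59 FPKM. Just outside were RPL36A, at 0.968 FPKM in HepG2 and 1.35 FPKM in BE(2)-C, and RPS10, at 1.07 and 0.795 FPKM. Pseudogenes held 56.4% of the reads of RPS10 and its pseudogenes in HepG2 and 87.9% in BE(2)-C. The levels of RPS10, RPS9 and RPL17 are therefore uncertain, since whether RPS9 and RPL17 share reads with other listed genes was not tested. RPL3L and RPL10L were listed at or near 0, and RPL39L was at 0.0118 FPKM in HepG2 and 28.7 FPKM in BE(2)-C.

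Of the paralogs ending in L or L1, RPL22L1 and RPL7L1 were lower in HepG2, where the genes they are named after were higher. RPL22L1, the paralog of RPL22 (hg38 chr3:170864875-170870208), fell in HepG2 from 18.9, 21.4 and 19.6 FPKM in siC to 8.42, 9.27 and 9.10 FPKM in siI1. The groups did not overlap, at a log2 fold change of -1.15 ± 0.069 (SE, limma adjusted p = 3.63e-05). It rose in BE(2)-C from 30.6, 30.1 and 29.7 FPKM to 42.4, 38.0 and 39.8 FPKM, again without overlap (0.41 ± 0.050, adjusted p = 0.00167). RPL22 rose in HepG2 from 92.3, 103 and 95.6 FPKM to 124, 148 and 148 FPKM (0.53 ± 0.086, adjusted p = 0.00258) and was not called in BE(2)-C (0.12, adjusted p = 0.238). The difference between a paralog and its partner was not tested.

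RPL7L1, a relative of RPL7, fell in HepG2 from 33.7, 33.3 and 34.1 FPKM to 24.5, 20.9 and 24.1 FPKM (-0.54 ± 0.070, limma adjusted p = 0.000912). It was not called in BE(2)-C (0.085, adjusted p = 0.336). RPL7 was higher in HepG2, at 0.33 (adjusted p = 0.0185, and from 0.065 to 0.0754 without siC 1, siC 3, siI1 2 or siI1 3), and in BE(2)-C, at 0.39 (adjusted p = 0.0106). RPS27L, a p53 target named after RPS27, rose in HepG2 from 20.7, 21.4 and 20.3 FPKM to 27.9, 32.3 and 32.6 FPKM (0.57 ± 0.072, adjusted p = 0.00087). It fell in BE(2)-C from 2.88, 3.38 and 3.39 FPKM to 2.57, 2.12 and 2.43 FPKM (-0.42 ± 0.11, adjusted p = 0.0307). That call was lost when siC 2, siC 3, siI1 2 or siI1 3 of BE(2)-C was left out, with adjusted p from 0.0747 to 0.093, and with equal sums of the other protein-coding genes (0.0696).

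RPL26L1 was not called in HepG2 (-0.049, limma adjusted p = 0.542) or BE(2)-C (-0.23, adjusted p = 0.0663), and with libraries scaled to equal sums it was called lower in both, at -0.22 and -0.21 (adjusted p = 0.00616 and 0.0478). It was also called lower in BE(2)-C without siI1 1 (adjusted p = 0.0111) or with a filter at FPKM 1 (0.0474), and in HepG2 with equal sums of the other genes (0.0202). RPL26 was higher in HepG2 at 0.68 (adjusted p = 0.00328) and in BE(2)-C at 0.36 (adjusted p = 0.0318, and from 0.0778 to 0.091 without siC 1, siC 3, siI1 1 or siI1 3). That BE(2)-C call was also lost with no filter (0.0547) or no trend (0.0792). RPL36AL, which the name rule did not take, was not called in HepG2 (0.11, adjusted p = 0.351, and 0.0259 without siI1 1). It was lower in BE(2)-C (-0.22, adjusted p = 0.0323, and from 0.0669 to 0.116 without siC 1, siC 2, siI1 2 or siI1 3). This call was also lost with no filter, no trend, median centring or equal sums of the other genes (from 0.0537 to 0.0939). RPL10 and RPL39 were higher in HepG2, at 0.37 (adjusted p = 0.0205) and 0.36 (adjusted p = 0.0313). Both calls were lost without HepG2 siC 1, siC 3, siI1 2 or siI1 3, with adjusted p from 0.0678 to 0.0762 for RPL10 and from 0.0924 to 0.104 for RPL39. That of RPL39 was also lost with no filter, no trend or equal sums (from 0.0592 to 0.0642). They were not called in BE(2)-C, at -0.011 and 0.16, while RPL39 was with equal sums (adjusted p = 0.0324).

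The change upon knockdown differed between the lines for 34 of 79 members (limma, adjusted p below 0.05), against 40.2% of all genes tested in both tables and 54.8% of the protein-coding genes of the same level rule. The member share was 43.0%. Of these members, 32 had the higher log2 fold change in HepG2, against 18.5% of all genes and 24.0% under the level rule, and 2, RPL22L1 and RPL7L1, in BE(2)-C, against 21.7% and 30.8%. The median difference of the members was 0.31, beside -0.038 over all genes in that fit. When HepG2 siI1 1 was left out, 61 members (77.2%) differed, against 46.0% of all genes and 62.8% under the level rule in that fit. The member share was below that of all genes in most other fits without 1 library. It was 29.1% to 30.4% (against 34.7% to 35.0%) without HepG2 siC 1, siC 3, siI1 2 or siI1 3. Without BE(2)-C siC 1, siC 2, siI1 2 or siI1 3 it was 30.4% to 35.4% (35.4% to 37.5%). It was 41.8% to 49.4% (37.0% to 38.4%) without HepG2 siC 2 or BE(2)-C siC 3 or siI1 1. With equal sums, 23 were higher and 7 lower in HepG2, against 13.3% and 29.5% of all genes, and the member median fell to 0.13 (0.12 with equal sums of the other genes), beside -0.21 over all genes. The differences with the smallest p were those of RPL22L1 (-1.56 ± 0.085, adjusted p = 3.57e-07), RPS27L (0.99 ± 0.13, adjusted p = 0.000121) and RPS28 (0.67 ± 0.10, adjusted p = 0.000316). Next were RPL7L1 (-0.63 ± 0.094, adjusted p = 0.00034) and RPS19 (0.89 ± 0.15, adjusted p = 0.000775). Across the members the log2 fold changes of the lines had a Pearson r of 0.112 and a Spearman rho of 0.17 (79 genes, which share their libraries and are not independent replicates).

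**Figure D4:**
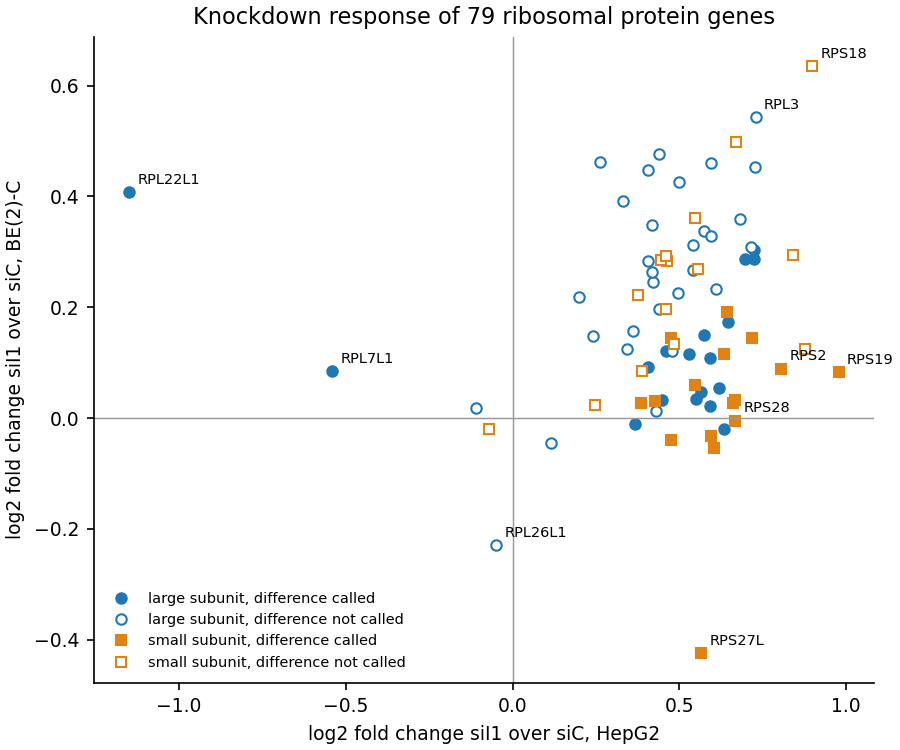
Log2 fold change of siI1 over siC in HepG2 (x axis) and BE(2)-C (y axis) for the 79 members, with circles for the large and squares for the small subunit and filled points where the difference between the lines was called. RPL22L1 lies at -1.15 and 0.41 and RPS27L at 0.57 and -0.42, away from the other members.

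The genes that assemble ribosomes were mostly lower in HepG2. Beside this and the next lists stand the protein-coding genes of the same level rule, of which 35.1% were lower and 24.5% higher in HepG2 and 24.2% and 15.7% in BE(2)-C. Of 34 genes for ribosome assembly and the nucleolus, 25 were lower and 1 was higher there, at a median log2 fold change of -0.44. The BE(2)-C counts were 6 lower and 2 higher (1 without siI1 1, siI1 2 or any 1 of the siC libraries), and their median of -0.033 was 0.0063 with median centring and 0.0498 with equal sums of the other protein-coding genes, 0.0106 without siC 2, -0.013 with equal sums, -0.057 without siC 1 and -0.012 without siC 3. The counts were 3 lower and 1 higher with no trend and 4 of each with equal sums of the other genes. NMD3, the export adapter of the large subunit, went from 15.7, 16.3 and 15.9 FPKM to 6.91, 6.01 and 6.08 FPKM in HepG2 (-1.32 ± 0.070, limma adjusted p = 2.4e-05). NIP7, a ribosome assembly factor, was at -1.11 (adjusted p = 5.14e-05). BYSL, needed for the small subunit, was at -0.75 in HepG2 (adjusted p = 4.19e-05) and -0.44 in BE(2)-C (adjusted p = 0.00404). EIF6, which keeps the subunits apart, was at -0.36 in BE(2)-C (adjusted p = 0.00496), and the nuclease NOB1 was at 0.32 (adjusted p = 0.00141).

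Of 13 genes for the transcription of ribosomal RNA, 8 were lower (5 without siC 2) and 2 higher in HepG2, at a median of -0.36. The higher count was 1 without siC 2. By limma it was 0 without siC 1 or siI1 2 (0 at an unadjusted p below 0.05), 0 without siC 3 (2 unadjusted) and 0 without siI1 3 (1 unadjusted). It was also 0 with no filter (2 unadjusted), with no trend or equal sums of the other genes (1 unadjusted in each) and with equal sums (0 unadjusted). For BE(2)-C, 1 was lower (2 without siC 2) and 3 were higher (1 without siC 3 or siI1 1), at a median of 0.066, and 0 were higher by limma without siI1 2 (3 unadjusted). With equal sums of the other genes 5 were higher, at a median of 0.15, with median centring the median was 0.11, and with no trend 1 was higher. The median was 0.12 without siC 2 or siC 3 and 0.0997 without siI1 1. The RNA polymerase I subunits POLR1A and POLR1B were at -0.33 and -0.52 in HepG2 (limma adjusted p = 0.00782 and 0.00146), and the initiation factor subunit TAF1D was at -0.50 (adjusted p = 0.000703). For BE(2)-C, POLR1D was at -0.24 (adjusted p = 0.0107), TAF1A at 0.67 (adjusted p = 0.0182) and UBTF at 0.18 (adjusted p = 0.0172). The call of TAF1A was lost without siC 2, siI1 2 or siI1 3 (adjusted p from 0.0509 to 0.0656) and that of UBTF without siC 3, siI1 1 or siI1 2 (from 0.0516 to 0.071) or with no trend (0.0791). POLR1D and UBTF were called in the same directions in HepG2, at -0.36 and 0.20 (limma adjusted p = 0.0215 and 0.0456). TAF1A was not called there (-0.54, adjusted p = 0.0608).

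The elongation factors and other genes with TOP mRNAs were more often higher than lower. Of 22 tested in each line, 13 were higher and 4 lower in HepG2, at a median of 0.31, and 11 were higher and 1 lower (2 without siC 2) in BE(2)-C, at a median of 0.18. The higher count in HepG2 was 8 without siC 1 or siC 3 and 7 without siI1 2. With equal sums 10 were higher and 5 lower in HepG2, and the median was 0.14 (0.20 with equal sums of the other genes). EEF2, which moves the ribosome along the mRNA, went from 453, 476 and 462 FPKM to 675, 726 and 744 FPKM in HepG2 (0.62 ± 0.078, limma adjusted p = 0.000821) and was at 0.43 in BE(2)-C (adjusted p = 0.00789). EEF1A1, which delivers the transfer RNAs, was at 0.11 in HepG2 (adjusted p = 0.463) and 0.27 in BE(2)-C (adjusted p = 0.0165, and from 0.0619 to 0.0624 without siI1 2 or siI1 3, and 0.0879 with no filter). PABPC1, which binds polyA tails, was at 0.59 in BE(2)-C, the initiation factor subunit EIF3H at 0.41 and the histone chaperone NAP1L1 at 0.46 (adjusted p = 0.000228, 0.00138 and 0.00199). These genes were also higher in HepG2, at 0.44, 0.37 and 0.39 (limma adjusted p = 0.00126, 0.00146 and 0.002). Their differences between the lines were not called. NACA, which binds nascent chains, and the initiation factor subunit EIF2S3 were lower in HepG2, at -1.04 and -0.82 (adjusted p = 0.000103 and 3.45e-05). NACA was also lower in BE(2)-C (-0.32, limma adjusted p = 0.00286), and EIF2S3 was not called there (0.0039, adjusted p = 0.951).

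RACK1, a protein of the small subunit without a ribosomal protein name, was at 0.37 in HepG2 and 0.25 in BE(2)-C (limma adjusted p = 0.0225 and 0.0298). The HepG2 call was lost without siC 1, siC 3, siI1 2 or siI1 3 (adjusted p from 0.0711 to 0.0803) or with no trend (0.0532), and the BE(2)-C call without siC 2, siC 3 or any 1 of the siI1 libraries (from 0.0705 to 0.0904), with no filter (0.064) or with no trend (0.0797). FAU, which encodes a small subunit protein, was not called in either line, at 0.33 and -0.11 (adjusted p = 0.068 and 0.168), while it was called higher in HepG2 without siI1 1 (adjusted p = 0.00255), with median centring (0.0293) or with a filter at FPKM 1 (0.0496). The difference between the lines was called for FAU (0.44, limma adjusted p = 0.0295).

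Of the regulators of ribosome genes, 9 of 21 tested were lower (5 without siC 1, siC 3 or siI1 3) and 3 higher in HepG2, at a median of -0.16. The lower genes were 42.9% of those tested, beside 35.1% under the level rule. With median centring 6 were lower and 5 higher, at a median of -0.067, and with equal sums 10 were lower and 2 higher, at -0.32 (-0.27 with equal sums of the other genes). Of 22 in BE(2)-C, 4 were lower (2 without siC 2 or siC 3 and 1 without siI1 2 or siI1 3) and 3 higher (1 without siC 1, siC 2 or any 1 of the siI1 libraries), against 3 lower and 4 higher with equal sums and 2 lower and 6 higher with median centring. They were 2 and 7 with equal sums of the other genes, 2 and 1 with no filter and 1 of each with no trend. MYC, a transcription factor that drives ribosome genes, fell in HepG2 from 46.2, 50.4 and 50.7 FPKM to 28.9, 26.3 and 27.4 FPKM (-0.83 ± 0.061, limma adjusted p = 7.7e-05). It was at or under 0.288 FPKM in BE(2)-C, where its relative MYCN had 1688, 1620 and 1671 FPKM in siC and 1880, 1855 and 1955 FPKM in siI1 (0.19, adjusted p = 0.0566). MYCN was called higher with either scaling to equal sums, median centring, a filter at FPKM 1 or a pseudocount of 0.01 (adjusted p from 0.00408 to 0.0401). CNBP, which binds TOP mRNAs, and MAX, the partner of MYC, were at -0.63 and -0.56 in HepG2 (adjusted p = 0.000195 and 0.000579). CNBP was also lower in BE(2)-C (-0.19, limma adjusted p = 0.0302), and MAX was not called there (0.14, adjusted p = 0.0873). LARP1 was at -0.11 in HepG2 (adjusted p = 0.271, and 0.0449 without siI1 1) and 0.16 in BE(2)-C (adjusted p = 0.0407, and from 0.0794 to 0.126 without siC 1, siC 2 or any 1 of the siI1 libraries). The BE(2)-C call of LARP1 was also lost with no filter (0.0631) or no trend (0.136). Its difference between the lines was called (-0.27, limma adjusted p = 0.0345). MTOR was not called, at 0.13 and -0.027. The transcription factor GABPA was at 0.39 in BE(2)-C, the S6 kinase gene RPS6KB2 at -0.42 and the mTOR target EIF4EBP1 at -0.32 (adjusted p = 0.00425, 0.0119 and 0.0161). GABPA and RPS6KB2 were called in the opposite direction in HepG2, at -0.46 and 0.46 (adjusted p = 0.021 and 0.00884), and the lines differed for both (-0.86 and 0.88, adjusted p = 0.000677 and 0.000474). The HepG2 call of GABPA was lost without siC 1, siC 3, siI1 2 or siI1 3 (adjusted p from 0.0686 to 0.073). The call of EIF4EBP1 was lost without siI1 2 or siI1 3 (adjusted p from 0.0521 to 0.0627) or with no trend (0.0521).

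The 78 mitochondrial ribosomal protein genes serve the separate ribosome of mitochondria. For HepG2, 13 were lower and 15 higher, and their median of 0.056 was -0.11 with equal sums (30 lower and 9 higher) and -0.055 with equal sums of the other protein-coding genes (21 lower and 9 higher). With median centring the median was 0.15. It was -0.00025 without siI1 3, 0.0054 without siI1 2, 0.026 without siC 1, 0.031 without siC 3 and 0.145 without siI1 1. The higher count was 8 with no trend, 8 without siC 1, siC 3 or siI1 2, 9 without siI1 3 and 28 without siI1 1. For BE(2)-C, 35 were lower and 2 higher (1 without any 1 of the siI1 libraries), at a median of -0.21. With equal sums of the other genes 27 were lower and 4 higher there, at a median of -0.13, and with no trend 1 was higher. MRPL53, MRPL49 and MRPS30 were at 1.79, 0.72 and -0.89 in HepG2 (limma adjusted p = 5.15e-05, 6.87e-05 and 8.13e-05). MRPL41, MRPL57 and MRPL28 were at -0.67, -0.54 and -0.47 in BE(2)-C (adjusted p = 0.000477, 0.000738 and 0.00087). MRPL41 was called higher in HepG2, at 0.33 (adjusted p = 0.044), and the lines differed (1.00, adjusted p = 0.000138). That HepG2 call was lost without siI1 2, siI1 3 or any 1 of the siC libraries (adjusted p from 0.0834 to 0.133) and with no filter, no trend or either scaling to equal sums (from 0.0506 to 0.118). Of the 157 member pseudogenes tested in HepG2, 36 were higher (22 without siC 1, siC 3 or siI1 2 and 21 without siI1 3) and 4 lower (7 without siI1 3). With equal sums 27 were higher and 10 lower, and with equal sums of the other genes 29 and 9. Of 134 in BE(2)-C, 18 were higher (9 without siI1 3) and 1 lower (2 without siC 2, siC 3 or siI1 1). The higher pseudogenes were 22.9% and 13.4% of those tested, beside 21.9% and 13.3% of all tested genes, and the lower ones 2.55% and 0.746%, beside 23.0% and 14.8%. Their medians were 0.35 in HepG2 and 0.18 in BE(2)-C, beside 0.0069 and 0.016 over all tested genes, and 108 and 91 of the tested pseudogenes had a log2 fold change above 0. The HepG2 median was 0.14 with a pseudocount of 1, 0.20 with no filter and 0.21 with equal sums, and that of BE(2)-C was 0.097 with a pseudocount of 1. Summed over the 940 listed pseudogenes, HepG2 had between 4178.5 and 4755 FPKM in siC and between 6303 and 7766 FPKM in siI1. For BE(2)-C these sums overlapped, at 6253 to 7002 FPKM and 6919 to 8274 FPKM. The pseudogene with the highest mean in each line was RPL41P1.

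**Figure D5:**
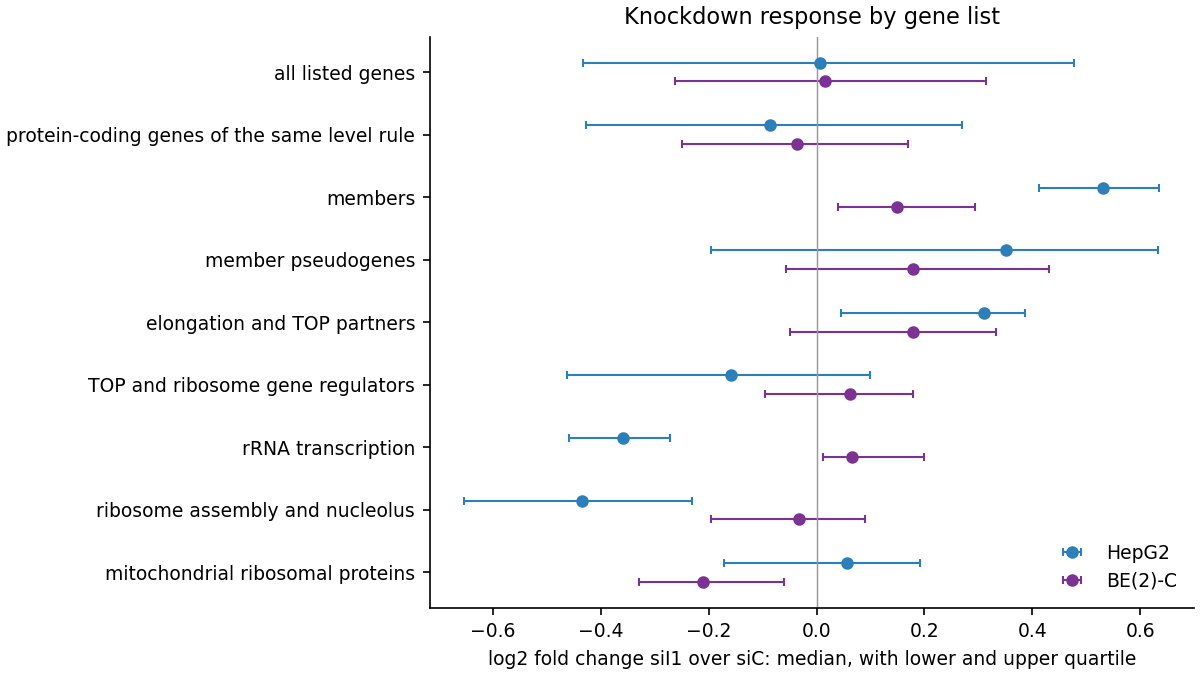
Median log2 fold change of siI1 over siC for each gene list in HepG2 (blue) and BE(2)-C (purple), with bars from the lower to the upper quartile of the genes tested. The members lie at 0.53 and 0.15, ribosome assembly genes at -0.44 and -0.033 (0.0063 with median centring and 0.0498 with equal sums of the other genes), and mitochondrial ribosomal protein genes at 0.056 (-0.11 with equal sums and -0.055 with equal sums of the other genes) and -0.21.

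The markers of the lines also moved upon knockdown. Of the 6 hepatic markers, 4 were higher and 2 lower in HepG2. The summed FPKM of the list was 6981, 7049 and 6939 in siC and 11535, 13203 and 13353 in siI1. APOA1 was at a log2 fold change of 1.70, AFP at -0.59 and TTR at -0.77 (limma adjusted p = 0.000282, 0.0029 and 0.00289). Of the 6 neuroblastoma markers, 4 were lower and 0 higher in BE(2)-C by limma (1 higher at an unadjusted p below 0.05, and 1, MYCN, by limma with equal sums, median centring, a filter at FPKM 1 or a pseudocount of 0.01), with HAND2 at -0.73 and PHOX2A at -0.40 (adjusted p = 0.000169 and 0.0042). The only one tested in HepG2 was DBH, at 0.38 (adjusted p = 0.542), a value that was 0.74 and 0.073 with pseudocounts of 0.01 and 1 and between 0.090 and 0.68 without 1 library. The summed FPKM of that list in BE(2)-C was 2783, 2605 and 2673 in siC and 2634, 2594 and 2694 in siI1. The part of these changes in the member values was not tested.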

How the data were processed

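PolyA RNA of 12 libraries was sequenced as paired ends of 150 nt. Per the submitters' processing notes and the methods of the study, reads were clipped with cutadapt 1.14, aligned to hg38 with HISAT2 2.1.0 and SAMtools 1.5 and counted per gene with featureCounts 1.5.3. The authors deposited FPKM values scaled with edgeR 3.30.3, in a table per line. The tables also hold the authors' fold changes, p-values and FDR, which were not used. Strand and multi-mapping settings of the counting are not given in the sources used here, so genes with near-identical copies are uncertain.

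Reads were recovered from FPKM and the listed lengths (whole within 0.01 for 100% of values) and used for depth. A gene was tested if at least 3 of 6 libraries reached an FPKM of 0.1. The test was limma 3.58.1 (R 4.3.3) on log2(FPKM + 0.1) with moderated errors that follow the mean level, and p was adjusted by the Benjamini-Hochberg method over the genes tested in a table. Fold changes are on that scale, which understates low genes. The difference between lines was a contrast in 1 fit of all libraries. The fit was tested on simulated data, where genes with few reads (under 50) gave more false calls than the threshold allows. The limit of 50 reads was set after this was seen. Every member had at least 177 reads in each library. Of the log2 changes of 0.5 put into those data, 51% were recovered for HepG2 and 43% for BE(2)-C. For differences of 0.5 between the lines it was 32.45%. Whether shifts that the members share within a library affect their calls was not tested there. Named genes were IGF2BP1, the 5 members of smallest p per line and direction and for the difference, paralogs with their partners, the 3 most abundant per line, members with known roles, those at the level threshold, and for other lists the 3 of smallest p per line besides genes set by role; genes called in opposite directions in the lines are given for both. Values of a few genes under this rule are not reported here. Members and lists were chosen with earlier results of these data known.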

Additional observations from a re-analysis of the deposited data

Results flagged for a closer look

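The change upon IGF2BP1 knockdown differed between HepG2 and BE(2)-C for 34 members by the contrast of both changes in 1 limma fit, against 40.2% of all genes tested in both tables and 54.8% of the protein-coding genes of the same level rule. The values that follow are the log2 fold change in HepG2 minus that in BE(2)-C for members described here with an adjusted p below 0.05. It was lower in HepG2 for RPL22L1 (-1.56) and RPL7L1 (-0.63). It was higher in HepG2 for RPS27L (0.99), RPS19 (0.89), RPS2 (0.72), RPS28 (0.67), RPS27 (0.63), RPSA (0.57), RPLP2 (0.57), RPLP0 (0.52), RPS3 (0.45), RPL13A (0.42), RPL22 (0.41) and RPL10 (0.38). Among genes of other lists that were called in opposite directions in the lines, it was -0.86 for GABPA, 0.88 for RPS6KB2 and 1.00 for MRPL41. For RPL22L1 and RPS27L each line had groups without overlap and in opposite directions. The differences of RPL10 and RPL13A were lost without HepG2 siC 1, siC 3, siI1 2 or siI1 3 or without BE(2)-C siC 1, siC 2, siI1 2 or siI1 3. The adjusted p then ranged from 0.0595 to 0.0734 for RPL10 and from 0.0645 to 0.0871 for RPL13A. With equal sums, the difference of RPL10 had an adjusted p of 0.0679, and 0.0707 with equal sums of the other protein-coding genes. With the latter scaling the differences of RPL13A, RPL22, RPLP0, RPLP2, RPS3 and RPSA were 0.23, 0.22, 0.32, 0.38, 0.26 and 0.38 and still called, and with equal sums those of RPL13A, RPL22, RPLP0 and RPS3 were 0.24, 0.23, 0.33 and 0.26, also still called. Without HepG2 siI1 1, 61 members (77.2%) differed, against 46.0% of all genes in that fit. Without HepG2 siC 1 or siI1 2, 23 members (29.1%) differed, below the 34.7% of all genes. Without BE(2)-C siI1 2 or siI1 3, 24 members (30.4%) did, below the 35.4% and 35.6% of all genes. The causes were not tested.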

How the results depend on the processing

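For 137 of the values of named genes, 2101 of 2292 values under other settings kept their direction and side of the threshold, 115 lost the call, 40 gained it and 36 changed sign. None of the 36 passed the threshold in either setting. The filter on low values, the pseudocounts, and the added alternatives chosen after seeing the data (pseudogene reads added, and members without RPS9, RPS18 and RPL17) left the member counts in HepG2 at 2 lower and 63 to 67 higher. RPS9, RPS18 and RPL17 were left out since they may share reads with other listed genes, which was not tested. With equal sums, 4 members were lower in HepG2 (RPL15, chosen after its values were seen, and RPL26L1 besides RPL22L1 and RPL7L1), as with equal sums of the other protein-coding genes (4). Without the paralogs, limma called 0 lower in HepG2 and 0 in BE(2)-C (0 in each at an unadjusted p below 0.05). In BE(2)-C, 2 were lower with a filter at FPKM 1 and 2 with equal sums (RPL26L1 besides RPS27L). There were 0 lower with equal sums of the other genes (1 at an unadjusted p below 0.05), 0 at adjusted p below 0.01 (2) and 0 for members of mean FPKM of at least 10 (1). Higher in BE(2)-C were 55 (median 0.23) with equal sums of the other genes, 22 without the trend and 16 at adjusted p below 0.01. Of all 18656 genes tested there, 3277 (median 0.093) were higher with equal sums of the other genes. Without the trend 2214 of them were higher, in place of 2489 (median 0.016 in both). Differing between the lines were 13 at adjusted p below 0.01. With equal sums in HepG2 RACK1 was at 0.21, POLR1A at -0.49 and RPS6KB2 at 0.30, and with equal sums of the other genes in BE(2)-C LARP1 was at 0.24 and POLR1D at -0.15, all called. By reads in place of FPKM the member share was 5.02% and 7.01% in HepG2 siC and siI1 and 11.0% and 12.6% in BE(2)-C. Without 1 library, 47 (siC 3) to 72 (siI1 1) members were higher in HepG2, 24 to 31 in BE(2)-C, 0 to 2 were lower in BE(2)-C and 23 to 61 differed. The higher genes were then 3326 to 4574 of all 19436 tested in HepG2 and 1519 to 2103 of 18656 in BE(2)-C. The 23 members that differed (29.1%, without HepG2 siC 1 or siI1 2) stood beside 34.7% of all genes, and the 61 (77.2%) beside 46.0%. The causes were not tested.

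Whether the replicate numbers pair the libraries is not known. Deviations of libraries with the same number correlated at 0.063, 0.035 and -0.006 in HepG2 and 0.023, -0.01 and -0.003 in BE(2)-C. Those of libraries with different numbers lay between -0.09 and 0.062 in HepG2 and between -0.02 and 0.022 in BE(2)-C. With 3 libraries per group these values cannot exclude a pairing. A fit that takes the replicate number as a block gave 2 lower and 69 higher members in HepG2, and 0 lower (2 at an unadjusted p below 0.05) and 33 higher in BE(2)-C. The member medians were 0.53 and 0.15. In that fit 41 members (51.9%) differed between the lines, against 41.0% of all genes and 56.4% under the level rule. Under the block RPL17 and FAU were called in HepG2 (adjusted p = 0.0382 and 0.0331), and the BE(2)-C calls of RPL26 and RPS27L were lost (0.0828 and 0.0694).

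MYC and RPS9, at 0.31 and 0.125 in BE(2)-C, were among the values that changed sign without 1 library. With equal sums in HepG2 they were -0.0545 for EEF1A1, -0.0358 for MTOR, -0.0568 for RPL36AL and -0.0533 for RPLP1. With equal sums in BE(2)-C they were 0.0085 for RPL10 and 0.0157 for RPS28. With equal sums of the other genes they were -0.0009 for RPL36AL in HepG2 and, in BE(2)-C, 0.0549 for MTOR, 0.0717 for RPL10, 0.0374 for RPLP1 and 0.0788 for RPS28. With median centring they were 0.0427 for RPL26L1 in HepG2 and, in BE(2)-C, 0.0125 for MTOR, 0.0278 for RPL10 and 0.0349 for RPS28. With pseudogene reads added it was 0.0274 for RPS28 in BE(2)-C. Without 1 library, RPL26L1 ranged from -0.0874 to 0.0051 in HepG2. The BE(2)-C ranges were -0.0496 to 0.0113 for MTOR, -0.0468 to 0.67 for MYC, -0.0617 to 0.0229 for RPL10, -0.0666 to 0.10 for RPL41, -0.0288 to 0.0603 for RPLP2, -0.0301 to 0.068 for RPS12, -0.0032 to 0.0751 for RPS27, -0.0519 to 0.0262 for RPS28 and -0.0611 to 0.45 for RPS9.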

Other observations

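RPS18, a small subunit gene, varied more between replicates than other members and was chosen here after its values were seen. It had 111, 66.7 and 8.93 FPKM in siC and 72.0, 66.3 and 91.0 FPKM in siI1 of HepG2, and 101, 90.5 and 13.2 FPKM in siC and 127, 30.7 and 117 FPKM in siI1 of BE(2)-C. It was not called in either line, and the cause of the spread was not tested. EEF1G, an elongation factor gene that every cell uses, was listed at or near 0 in both tables, so a low listed value does not show that a gene is silent. Reads on pseudogenes named after a member made up 44.6% of the reads of RPL9 and its pseudogenes in HepG2 and 49.0% in BE(2)-C, and for RPL21 27.1% and 19.4%. Across the members, the log2 mean FPKM of the siC libraries in HepG2 and in BE(2)-C had a Pearson r of 0.903 and a Spearman rho of 0.846 (79 genes, a description across tables that were normalized separately).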
